A study of Homo sapiens with 2 samples.

Results

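The genes described here are 10 transcription factors and signalling regulators of the immediate early response: EGR1, EGR2, EGR3, NR4A1, NR4A2, NR4A3, IER2, IER5, SRF and MYC. They were taken by gene symbol from 2 deposited expression tables, and all 10 were found among the 26255 symbols listed. The cells were OVSAHO, an established human cell line derived from a serous ovarian carcinoma. The perturbed library came from a culture labelled as stable for SMARCA2 and knocked down for SMARCA4, the alternative ATPases of the SWI/SNF chromatin remodeller. The control library came from a culture labelled wild type. Both cultures had been exposed to carboplatin, a platinum drug that crosslinks DNA, at 25 µM for 2 days, so no value describes untreated cells or the first hours of a stimulus. There was 1 library in each group and no replicate, so no p-value or between-culture error can be given. The sources used here do not give the promoter that drives SMARCA2, nor whether either culture was a single clone.

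Immediate early genes are switched on within minutes of a growth factor, stress or calcium signal, without new protein synthesis, and most of their RNAs are short-lived. The ERK and p38 kinase cascades act on SRF and its ETS partners at serum response elements, whose core is the CArG box, and on CREB at cyclic AMP response elements. The products are mostly transcription factors: EGR proteins are zinc finger factors that bind GC-rich sites, NR4A proteins are orphan nuclear receptors, and MYC drives growth and ribosome production. In ovarian cancer cells these genes respond to growth factor receptors and to DNA damage.

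Levels are in FPKM, a scale of mapped fragments counted per kilobase and per 1000000, that divides by transcript length and so allows genes to be ranked against each other. Folds are ratios of the deposited FPKM. A gene was called higher or lower by a rule of size: it had to reach 1 FPKM in at least 1 library, and its log2((FPKM + 1)/(FPKM + 1)), perturbed over control, had to be at least 1 or at most -1. Behind each fold stands a 95% Clopper-Pearson interval on estimated fragment numbers, which covers counting error only. About 8850000 fragments stood behind the perturbed library and 9050000 behind the control. SMARCA2 was at 2.60 against 0.205 FPKM and SMARCA4 at 4.49 against 27.9 FPKM, so both went the way the series title states. Of 9 markers of epithelial and serous ovarian cells, 7 were at 1 FPKM or more in the perturbed library and 8 in the control. The leukocyte marker PTPRC, the fibroblast markers PDGFRB, LUM and DCN and the erythroid markers HBB and HBA1 were listed at 0 in both.

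Of the 10 genes, 8 reached 1 FPKM in a library, and 2 of these, NR4A1 and NR4A2, were lower by the rule in the perturbed library. None was higher. For comparison, 15.5% of the 11785 genes at this level passed the rule, 7.61% of them lower and 7.85% higher. EGR1, NR4A3, IER5, SRF and MYC had ratios above 1 and IER2 a ratio below 1, all within the rule. The set thus went in both directions. At a rule of 1.5-fold 6 of the 8 passed, 3 each way, beside 40.4% of all genes, and at 4-fold 0 passed, beside 1.32%. Its median log2 ratio was 0.41 over the 8 genes, beside -0.06 over all genes at this level. With so few genes, 2 calls are a description of these 2 libraries. Less RNA per cell and fewer expressing cells cannot be told apart in such bulk values.

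**Figure D1:**
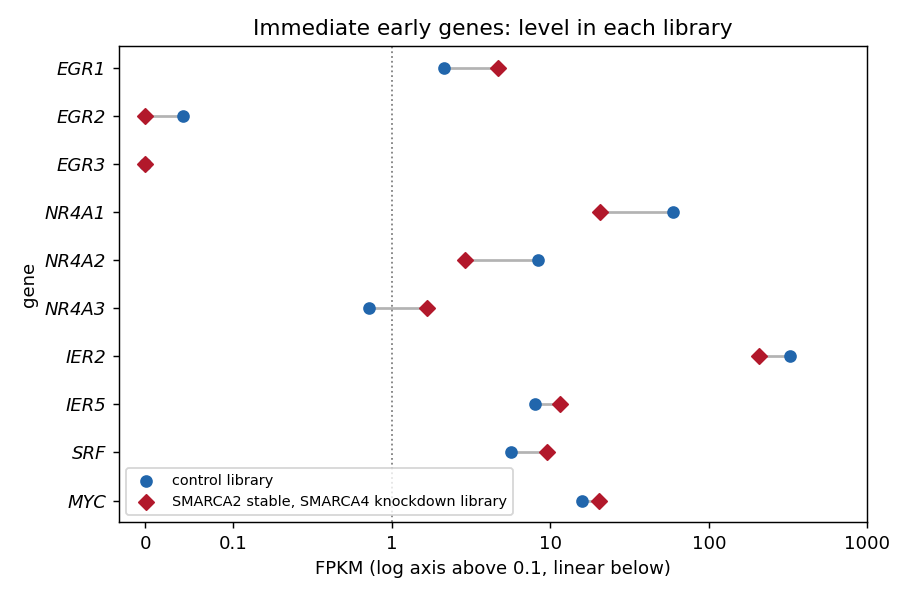
FPKM of each of the 10 genes (horizontal axis, logarithmic above 0.1 and linear below) in the control library (circles) and the perturbed library (diamonds), with a dotted line at 1 FPKM. NR4A1, NR4A2 and IER2 have the diamond on the left, EGR1, NR4A3, IER5, SRF and MYC on the right, and EGR2 and EGR3 lie at or near 0.

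In the control library the order of levels was IER2, NR4A1, MYC, NR4A2, IER5, SRF, EGR1, NR4A3, EGR2 and EGR3. In the perturbed library it was IER2, NR4A1, MYC, IER5, SRF, EGR1, NR4A2 and NR4A3, with EGR2 and EGR3 listed at 0. NR4A1 at 20.7 FPKM and MYC at 20.3 FPKM were neighbours in the perturbed library, where NR4A1 rested on about 453 fragments and MYC on about 390. NR4A2 was thus the gene that changed place, from above IER5, SRF and EGR1 to below all of them.

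NR4A1, also known as NUR77, is an orphan nuclear receptor that stress and growth signals induce. Its level was 20.7 FPKM with the SWI/SNF perturbation against 59.4 FPKM without it, 2.88-fold lower (interval 2.58 to 3.21). Only 236 of the 11785 genes had a lower log2 ratio than its -1.48. NR4A2, or NURR1, a receptor of the same family best known from dopamine neurons, was at 2.88 against 8.29 FPKM, also 2.88-fold lower (2.24 to 3.74), with a log2 ratio of -1.26. The listed levels of these receptors thus kept their proportion: NR4A1 was 7.17 times NR4A2 in the perturbed library and 7.16 times in the control. NR4A2 rested on about 83.4 fragments in the perturbed library, so counting error allows other proportions. NR4A3, or NOR1, went the other way, at 1.66 against 0.720 FPKM, 2.31-fold higher (1.54 to 3.52). It reached 1 FPKM in the perturbed library only, and its log2 ratio with the pseudocount was 0.63, within the rule.

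Together the NR4A genes summed to 25.2 FPKM after the perturbation and 68.4 FPKM without it, 2.72-fold lower. NR4A1 made up 82.0% and 86.8% of these sums, NR4A2 11.4% and 12.1%, and NR4A3 6.59% and 1.05%. NR4A3, which acts redundantly with NR4A1 in blood cells, stayed below NR4A1 in level: the ratio of NR4A1 to NR4A3 was 12.4 in the perturbed library and 82.5 in the control. NR4A1 and NR4A2 can pair with the retinoid X receptors. RXRA was at 2.31 against 1.45 FPKM and RXRB at 11.7 against 9.74 FPKM, both within the rule, and RXRG was listed at 0 in both libraries.

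The NR4A3 interval depends on which transcript the fragments came from. With the shortest transcript that RefSeq matches, 2588 bases in place of 5706, it was 1.24 to 4.50. NR4A3 has the longest transcript of the set, and genes with transcripts of 5000 bases or more had a median log2 ratio of 0.29, against -0.20 at 1500 to 3000 bases. With trends on length, GC content and level removed, the log2 ratio of NR4A3 was 0.31, while NR4A1 kept -1.31 and NR4A2 -1.25. An annotated gene overlaps exons of NR4A1 on the other strand and is not listed in the tables under that name, and the library kit does not mark strand, so reads of the pair cannot be told apart.

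**Figure D2:**
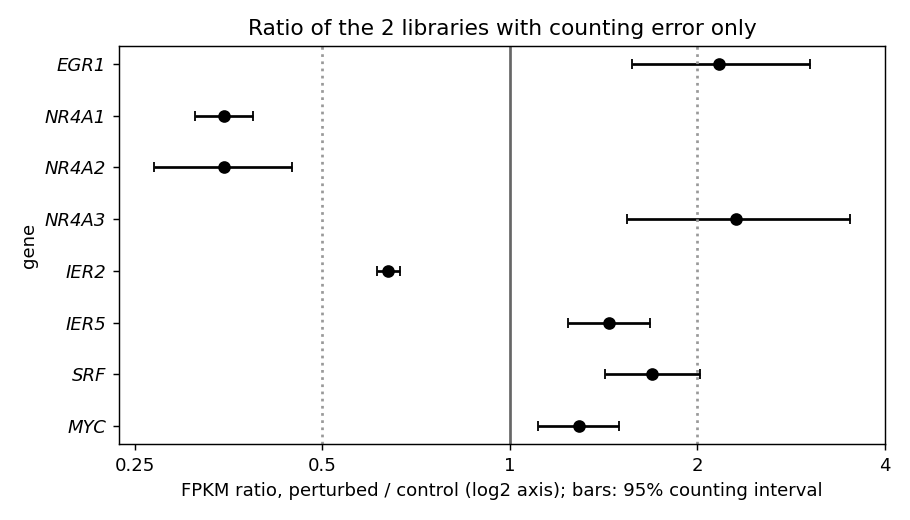
Ratio of FPKM, perturbed over control (log2 axis), for the 8 genes above 0 in both libraries, with bars for the 95% counting interval and dotted lines at 2-fold in each direction. NR4A1 and NR4A2 share a ratio of 0.348 and 0.347, and no interval covers 1.

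EGR1, the member of its family that most stimuli induce, had 4.65 FPKM in the perturbed culture against 2.14 FPKM in the control one, 2.17-fold higher (1.57 to 3.03). About 121 and 57.0 fragments stood behind these values. Its log2 ratio was 0.85, within the rule because the pseudocount of 1 FPKM pulls low values together. With a pseudocount of 0.1 FPKM it was 1.08 and NR4A3 was 1.10, so both then passed as higher. EGR2, which guides myelination in Schwann cells, was at 0.0425 FPKM in the control, about 1.07 fragments, and was listed at 0 in the perturbed library. EGR3, which takes part in muscle spindle and lymphocyte development, was listed at 0 in both.

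EGR1 was therefore nearly the whole expressed family. With EGR4 counted in, EGR1 held 93.7% of the EGR sum of 2.29 FPKM in the control and all of the 4.65 FPKM in the perturbed library. EGR4 was at 0.102 FPKM in the control, about 2 fragments, and at 0 in the perturbed library. NR4A1 was 27.7 times EGR1 in the control and 4.44 times in the perturbed library. NAB1 and NAB2 are corepressors that bind EGR1, and NAB2 is itself an EGR1 target. NAB1 was at 3.15 against 1.89 FPKM and NAB2 at 10.7 against 10.3 FPKM, both within the rule. WT1, a zinc finger factor that binds EGR-like sites and marks serous ovarian tumours, was higher, at 5.52 against 1.53 FPKM.

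Of 10 genes listed as EGR1 targets, 6 reached 1 FPKM, and 0 were higher and 0 lower by the rule, which 15.5% of all genes passed. The most abundant was NAB2. Their median log2 ratio was -0.22. It turned to 0.19 with libraries scaled to a common sum, where 7 genes in place of 6 reached 1 FPKM. It was 0.25 over the 4 that both libraries held at 1 FPKM, 0.28 over the 2 that reached 5 FPKM and 0.10 over all 10. With a pseudocount of 0.1 FPKM, or with trends removed, 1 of the 6 was lower. The secreted matrix protein THBS1 (thrombospondin) was at 0.737 against 2.29 FPKM and the growth factor subunit PDGFA at 1.82 against 1.09 FPKM, so the values went in both directions. THBS1 and PDGFA were picked once their values were known.

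SRF, the factor that binds the CArG box, had 9.48 FPKM in the perturbed culture against 5.6 FPKM in the control one, 1.69-fold higher (1.42 to 2.02) and within the rule, with a log2 ratio of 0.67. Its partners are the ETS-domain ternary complex factors ELK1, ELK3 and ELK4, which ERK phosphorylates, and the actin-sensing coactivators MKL1 and MKL2. Of 4 tested cofactors, ELK3 alone passed the rule, beside 15.5% of all genes. It was higher at 3.30 against 0.827 FPKM, or 3.99-fold (2.65 to 6.17). With a pseudocount of 5 FPKM, 0 of the 4 passed. ELK1 was at 13.7 against 27.9 FPKM, with a log2 ratio of -0.97 just inside the rule, and was named after its value was seen. ELK1 exceeded ELK3 in both libraries. MKL1 was at 1.78 against 1.22 FPKM, MKL2 was under 1 FPKM in both and MYOCD was listed at 0 in both.

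Of 18 tested cytoskeletal and matricellular genes that SRF and its MKL coactivators are known to drive, 3 were higher and 2 lower, 27.8% past the rule beside 15.5% of all genes, with a median log2 ratio of -0.02. The actin-binding protein TAGLN was at 174 against 49.5 FPKM and CTGF at 57.4 against 20.2 FPKM. The smooth muscle actin ACTA2 was 8.63-fold higher (2.61 to 45.4) on about 2.95 fragments in the control. The myosin light chain MYL9 was 2.30-fold lower and TAGLN2 was 2.23-fold lower, at 587 against 1309 FPKM. With trends on length, GC content and level removed, 4 of the 18 were higher and 0 lower. The actin ACTG1, named after its value was seen and whose promoter window holds a CArG box, was at 2535 and 2548 FPKM.

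Promoters of the set were compared because SRF and CREB sites are what these genes are known to share. Sequences came from the RefSeq table on GRCh38.p14, a later build than the hg19 named for the expression files. Of the 10 genes, 7 were searched, in 11 windows. NR4A2 had no entry, and EGR3 and MYC were left out of the search, so their promoters are not described. Each window was the 250 bases before an annotated start, searched on both strands for the CArG box, and for TGACG, the core of the cyclic AMP response element. The CArG box reads the same on both strands and was counted once. EGR1, EGR2 and SRF are shown for their CArG boxes, NR4A3 for its repeated TGACG, and NR4A1 as the lower gene with neither in its listed windows. Capitals mark CArG boxes and TGACG, which reads CGTCA where it lies on the other strand. Each is printed 5′ to 3′ on the gene's own strand.
EGR1 (chr5:138465229-138465478, plus strand): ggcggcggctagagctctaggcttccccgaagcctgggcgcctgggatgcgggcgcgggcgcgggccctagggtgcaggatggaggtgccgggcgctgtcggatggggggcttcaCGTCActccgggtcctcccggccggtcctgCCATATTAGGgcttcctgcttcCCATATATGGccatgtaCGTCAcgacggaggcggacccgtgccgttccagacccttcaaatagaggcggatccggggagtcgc
EGR2 (chr10:62816367-62816616, minus strand): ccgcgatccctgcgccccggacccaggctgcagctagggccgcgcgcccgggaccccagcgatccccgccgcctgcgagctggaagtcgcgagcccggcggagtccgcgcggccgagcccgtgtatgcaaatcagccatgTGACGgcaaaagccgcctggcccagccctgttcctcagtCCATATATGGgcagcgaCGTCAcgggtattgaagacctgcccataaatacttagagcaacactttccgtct
SRF (chr6:43171019-43171268, plus strand): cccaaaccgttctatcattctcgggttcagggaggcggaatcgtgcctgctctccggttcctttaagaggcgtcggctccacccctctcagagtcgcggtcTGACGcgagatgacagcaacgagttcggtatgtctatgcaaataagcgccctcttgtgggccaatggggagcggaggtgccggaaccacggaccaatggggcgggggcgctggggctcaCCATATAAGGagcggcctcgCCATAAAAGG
NR4A3 (chr9:99821635-99821854, plus strand, without the 30 bases that an exon covers): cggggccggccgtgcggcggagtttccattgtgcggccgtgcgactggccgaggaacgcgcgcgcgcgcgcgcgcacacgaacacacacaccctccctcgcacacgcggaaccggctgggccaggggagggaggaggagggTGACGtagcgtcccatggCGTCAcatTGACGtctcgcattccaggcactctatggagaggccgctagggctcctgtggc
NR4A1 (chr12:52037465-52037714, plus strand): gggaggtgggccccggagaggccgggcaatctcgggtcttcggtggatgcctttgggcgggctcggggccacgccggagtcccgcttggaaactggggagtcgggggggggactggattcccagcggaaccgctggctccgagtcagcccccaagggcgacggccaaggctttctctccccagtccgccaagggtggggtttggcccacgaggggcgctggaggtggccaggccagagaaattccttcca

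EGR1 held 2 CArG boxes, CCATATTAGG at 105 to 96 bases and CCATATATGG at 83 to 74 bases before its start. Of the 3 EGR2 windows only the printed one held a CArG box, with the same letters CCATATATGG at 71 to 62 bases. The printed SRF window held CCATATAAGG and CCATAAAAGG, the latter ending at the base before the start, and the other SRF window held no CArG box. A CArG box was found in 1.16% of the 35116 promoter windows in the table. EGR2 and EGR1 thus carried the same box and differed in level, at 0.0425 and 2.14 FPKM in the control. NR4A3 had 4 TGACG sites in its full window, 3 of them in the printed stretch, beside 21.2% of all windows with at least 1. NR4A1 had neither in either of its 2 windows. It has 4 transcripts matched to RefSeq, and any start of NR4A1 without a window was not searched. IER2 had 1 TGACG and no CArG box, and IER5 had neither. SRF also held GCGNGGGCG, an EGR binding site, which 8.41% of windows hold, and EGR1 held 1 in its own window. A match describes letters in a window and does not show that a factor was bound.

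IER2, a small nuclear protein of the early response, was the most abundant gene of the set and stood at rank 543 of all genes in the control. Its level was 206 FPKM in perturbed cells against 323 FPKM in control cells, 1.57-fold lower (1.5 to 1.64), with a log2 ratio of -0.65, within the rule. Its counting error was small, with about 3430 and 5500 fragments. Of all genes at 1 FPKM or more in a library, 18.4% had a lower ratio. An annotated gene also overlaps IER2 on the other strand, with the same limit as for NR4A1.

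IER5, a relative of IER2 that helps to activate the heat shock factor HSF1, was at 11.5 against 8.0 FPKM, 1.44-fold higher (1.24 to 1.68) and within the rule. The pair went in opposite directions, with IER2 at 40.3 times IER5 in the control and 17.8 times in the perturbed library. HSF1 was at 67.5 against 59.4 FPKM. Of HSF1 and 8 heat shock genes, 1 was lower and 0 higher, 11.1% past the rule beside 15.5% of all genes, with a median log2 ratio of -0.27. The lower one was the small chaperone HSPB1, at 885 against 1863 FPKM, and 0 were lower with libraries scaled to a common sum, when centred or with a trend on level removed.

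MYC had 20.3 FPKM in perturbed cells against 15.8 FPKM in control cells, 1.29-fold higher (1.11 to 1.5). Its log2 ratio of 0.35 was the smallest in size among the 8 tested genes, and 71.0% of all genes had a lower ratio. MAX, the obligate partner of MYC, was at 20.9 against 27.5 FPKM, so that MYC was 0.973 times MAX in the perturbed library and 0.572 times in the control. Among 12 tested network genes 1 was higher and 1 lower, 16.7% past the rule beside 15.5% of all genes. MXD1, an antagonist that competes for MAX, was lower at 0.503 against 2.2 FPKM, and TRRAP, a scaffold of histone acetyltransferase complexes that MYC recruits, was higher at 2.86 against 0.802 FPKM. Centred on the median ratio, 0 network genes were lower, and with a trend on level removed 0 were higher.

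Among 7 genes that set the turnover of MYC protein, 1 was higher and 2 were lower, beside 15.5% of all genes past the rule in either direction. FBXW7, the ubiquitin ligase subunit that targets MYC, was at 2.41 against 0.131 FPKM, 18.4-fold higher (7.04 to 66.4) on about 4.20 fragments in the control. The ligase subunit SKP2 was 2.29-fold lower and the kinase AURKA was 2.26-fold lower. With a trend on level removed, alone or with length and GC content, 0 of these genes were lower by the rule and 1 was higher. Of 28 MYC target genes, mostly of ribosome production, 2 were higher and 0 lower, and 26 lay within the rule, with a median log2 ratio of -0.03. The higher ones were the nucleolar methyltransferase FBL at 188 against 83.9 FPKM and the pyrimidine synthesis enzyme CAD at 15.8 against 6.44 FPKM. The 7.14% past the rule is to be read beside 15.5% of all genes.

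**Figure D3:**
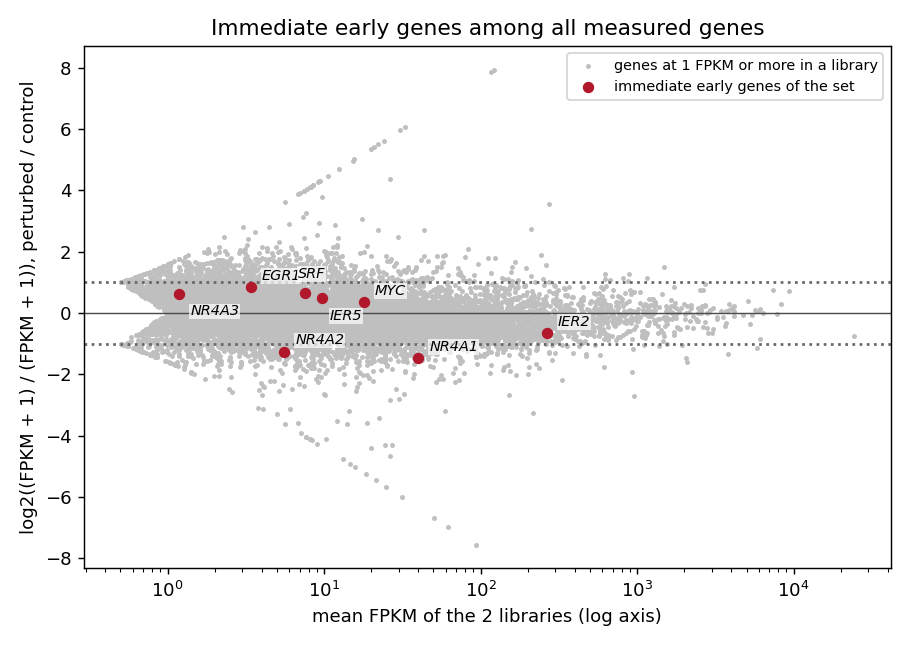
Log2 ratio with the pseudocount (vertical axis) against mean FPKM of the 2 libraries (logarithmic axis) for the 11785 genes at 1 FPKM or more in a library (grey) and the 8 immediate early genes among them (red), with dotted lines at the rule of size. NR4A1 and NR4A2 lie below the lower line, and the other 6 lie between the lines.

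Other early response genes were described for comparison, from lists chosen with earlier results of these data known. Of 7 tested AP-1 subunits, the FOS and JUN family factors that form dimers, 3 were lower and 1 higher, beside 7.61% lower and 7.85% higher of all genes, with a median log2 ratio of -0.88. With trends on length, GC content and level removed, 2 were lower and 0 higher. FOSL1 was at 5.65 against 46.9 FPKM, 8.31-fold lower (6.51 to 10.7). FOS was at 8.02 against 25.6 FPKM, 3.20-fold lower, and ATF3 was 2.41-fold lower. JUND was higher at 17.2 against 7.02 FPKM. FOS and EGR1, both known SRF targets, thus stood on opposite sides of 1 in the same pair of libraries.

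Of 31 other tested early response genes, 10 were lower and 2 higher, beside 7.61% and 7.85% of all genes, with a median log2 ratio of -0.11. The lower ones were led by the kinase SGK1 at 5.49 against 26.5 FPKM, the nuclear protein CSRNP1 at 6.42 against 27.0 FPKM and the small MAF factor MAFF at 10.2 against 31.8 FPKM. The Notch target HES1 was higher at 32.8 against 13.9 FPKM, as was the RNA-decay factor ZFP36L2 at 17.8 against 8.32 FPKM. This count depended on scaling. With each library scaled to a common sum, 5 were lower and 4 higher, beside 685 lower and 1257 higher of 12020 genes. Centred on the median ratio, 6 were lower and 4 higher, beside 684 and 1158 of 11785. With a trend on level removed, and with trends on length, GC content and level removed, 5 were lower and 3 higher, and 14.1% and 12.7% of the genes fitted then passed in either direction. IER3 (61.7 and 59.9 FPKM) and NFKBIA (129 and 123 FPKM), named after their values were seen, lay close to a ratio of 1.

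Among 13 tested kinases that signal to these genes, 1 was higher and 0 were lower, 7.69% past the rule beside 15.5% of all genes, and the median log2 ratio was 0.26. The higher one was MAP2K2, an ERK kinase, at 50.8 against 17.95 FPKM, 2.83-fold (2.45 to 3.29). RNA levels of kinases do not show their activity.

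**Figure D4:**
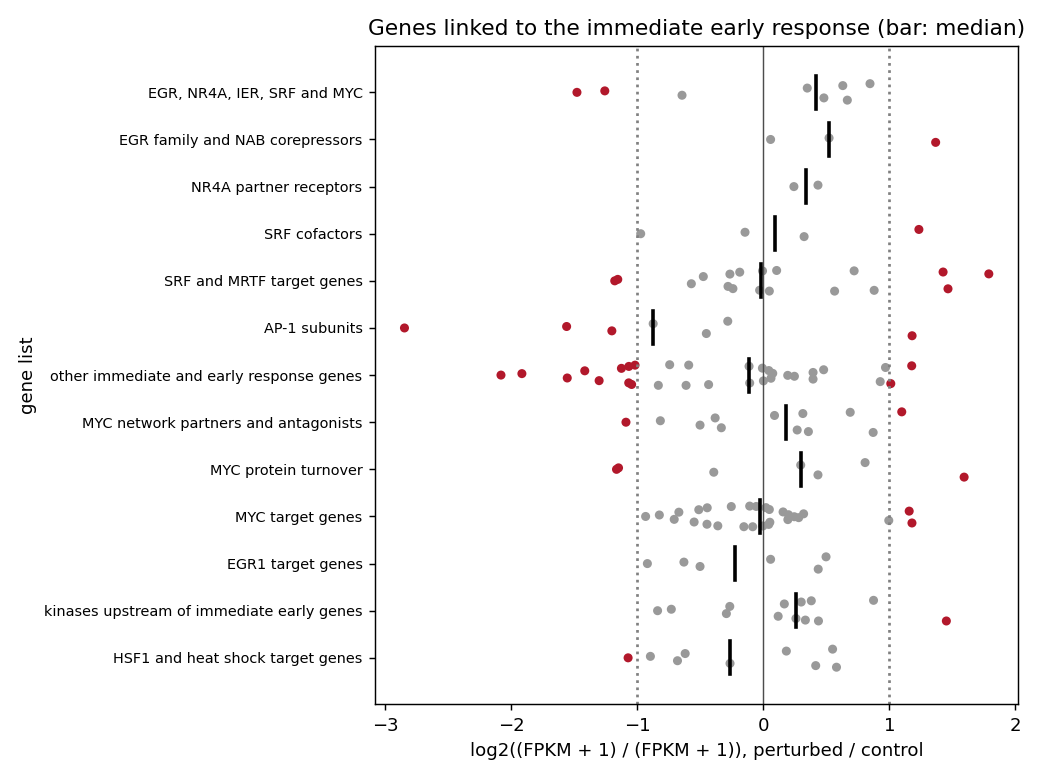
Log2 ratio of each tested gene (points, red past the rule of size, grey within it) in the set and in each of 12 lists of linked genes, with a bar at the median and dotted lines at the rule. AP-1 subunits have the lowest median, -0.88, and the MYC target genes cluster around 0.

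The 10 genes also had transcript features that the choice did not use. By the GENCODE 29 transcripts matched to RefSeq, 5 of the 10 had at most 2 exons, as against 6.48% of 10396 tested protein-coding genes. These were EGR1, EGR2, EGR3, IER2 and IER5, and IER5 had 1 exon. The NR4A genes had 8 or 9. The median transcript length was 3305 bases for the set and 2914 for those genes. In the 3′ untranslated region, 9 of the 10 held ATTTA, the core of AU-rich elements that speed RNA decay, beside 68.2% of the protein-coding genes. The density was highest in MYC, at 8.40 per kb, and in NR4A1, at 5.34 per kb, and IER2 had none. The median over the set was 2.35 per kb against 1.54. ATTTATTTA was found in IER5 alone of the set, and in 6.25% of the protein-coding genes.

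**Figure D5:**
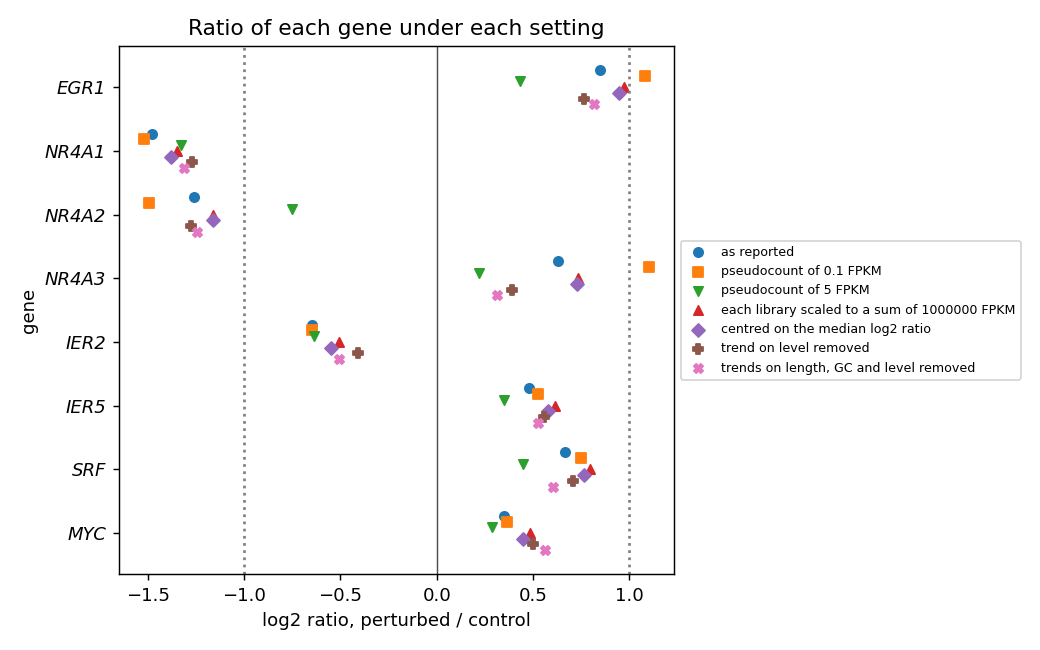
Log2 ratio of the 8 tested genes as reported (blue circles) and under 6 other settings for the pseudocount, the scaling and the removal of trends, with dotted lines at the rule of size. No gene changed the side of 0 under these settings, NR4A1 stayed below -1 in all, and NR4A2 was at -0.75 with a pseudocount of 5 FPKM.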

How the data were processed

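RNA was measured in 2 cultures of OVSAHO cells, 1 per group, grouped by the genotype labels. A Qiagen micro kit, SMART-Seq HT cDNA synthesis and Nextera XT were used to make the libraries, per the labels' protocols. The authors deposited 1 FPKM value per gene symbol and library, per the file headers. Cuffdiff 2.2.1, TopHat2 2.1.1, SAMtools 0.1.18, Bowtie2 2.2.8 and hg19 stand in the submitters' processing notes. Annotation, filters and scaling between libraries were not stated in these sources.

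The 10 genes and the 12 lists (157 genes, all found in the tables) were chosen with earlier results of these data known. Genes named from a list were up to 3 per direction past the rule of size, ranked by log2 ratio, or the 2 most abundant where none passed. Others named were picked once their values were known. A gene the rule selects is not reported here. No library had a replicate, so no test was run. Fragment numbers were estimated from FPKM steps: the depth and a shortening of transcripts (200 bases) were chosen to put the largest number of single-transcript genes in a 2% window at 1 fragment (265 of 6811 in the perturbed library and 232 of 6585 in the control). This procedure was also run on simulated data with another depth and shortening, an outcome not given here, so the fragment numbers remain estimates. Transcripts came from GENCODE 29 (GRCh38) matched to RefSeq, for 93.1% of tested genes, taking the principal transcript. Promoters came from the RefSeq table on GRCh38.p14. PCR copies are not independent molecules, so intervals cover counting error only. Alternatives were a pseudocount of 0.1 or 5 FPKM, scaling to a sum of 1000000, centring, removal of cubic trends, other filters and rules of 1.5-fold and 4-fold. Python 3.11.15, pandas 2.3.3, numpy 2.4.6, scipy 1.17.1 and matplotlib 3.10.9 were used.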

Additional observations from a re-analysis of the deposited data

How the results depend on the processing

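No paired analysis was possible because each group had 1 library and the labels give no replicate numbers, and no library could be left out. Of the 8 tested genes, 2 passed the rule as reported. The count was 4 with a pseudocount of 0.1 FPKM (EGR1 and NR4A3 added as higher), 1 with a pseudocount of 5 FPKM (NR4A1), 6 with a 1.5-fold rule and 0 with a 4-fold rule. It was 2, both lower, under every other alternative run. The median log2 ratio of the set, 0.41, was 0.25 with a pseudocount of 5 FPKM, 0.55 with libraries scaled to a common sum and 0.17 with no filter. It reversed to -0.15 among the 6 genes at 5 FPKM or more in a library, which leaves out NR4A3 and EGR1. Over all list genes, 32 passed as reported, 16 with a pseudocount of 5 FPKM, 59 with a 1.5-fold rule and 2 with a 4-fold rule. Scaling to a common sum moved the median over all tested genes from -0.06 to 0.08. The share of higher genes among all those past the rule moved from 50.8% to 64.7%, and to 62.9% when centred. Over all genes, 925 were higher and 897 lower as reported, against 1630 and 1267 with a pseudocount of 0.1 FPKM and 219 and 380 with 5 FPKM. Where a setting other than the pseudocount or the filter moved a value, the cause was not tested. Depth limits EGR2, EGR3 and EGR4, which rested on 0 to about 2 fragments.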

Other observations

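Genes with promoter motifs tied to these factors were counted among the 8748 tested genes with an entry in the promoter table, of which 7.32% were higher and 7.08% lower (median log2 ratio -0.08). Of 127 genes with a CArG box in a window, 8 were higher and 9 lower, and the median was 0.04. The higher ones included the myosin light chain kinase MYLK (8.68 against 2.18 FPKM) and the kinase ROCK2 (1.82 against 0.214 FPKM), and the lower ones the water channel AQP3 (0.0676 against 4.89 FPKM) and the detoxifying enzyme CYP1A1 (1.69 against 12.2 FPKM). Of 1573 genes with GCGNGGGCG, the EGR site, 144 were higher and 78 lower, or 9.15% and 4.96%, and the median was 0.04. Of 81 genes with AAAGGTCA, the site that NR4A receptors bind as monomers, 7 were higher and 7 lower. Of 321 genes with the full cyclic AMP response element TGACGTCA, 16 were higher and 28 lower, and the median was -0.18. Of 337 genes with the AP-1 site TGACTCA, 26 were higher and 36 lower. Of 1000 genes with CACGTG, the E-box that MYC and MAX bind, 67 were higher and 69 lower, and the median was -0.10. Promoters with such motifs differ in base composition, which was not matched here, and a motif in a window is not evidence of binding. The named genes of these groups were chosen after their values were seen.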
